A study of Mus musculus with 14 samples.

Results

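The urea cycle and amino acid catabolism genes are a group of 40 liver enzymes and carriers that take amino acids apart and turn their nitrogen into urea. Their DNase hypersensitive regions were taken from the peak lists of 14 mouse liver libraries. A region belonged to a gene when it overlapped the gene body or lay within 10 kb upstream of the gene's start in the mouse build mm9. Overlapping peaks of different libraries (1 bp or more) were joined into 1 region. All 40 genes had a region, with 166 regions in all out of 48148 in the series. The members came from a named list, set with earlier results of these data known, and not from a rule on their measured values. The links overlap with other genes, since 43 of the 166 regions were also linked to a protein-coding gene outside the group, and 4 were shared by Sds and Sdsl.

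Hepatocytes are the main site of the urea cycle, which joins ammonia to bicarbonate in mitochondria and finishes in the cytosol with the release of urea. The enzymes that degrade methionine, tyrosine, tryptophan, histidine, branched-chain and other amino acids feed nitrogen and carbon skeletons into it, and many of their genes respond to diet, glucagon and glucocorticoids. Growth hormone (GH), which the pituitary secretes, signals in hepatocytes through STAT5, a DNA-binding factor, and is known to lower urea production. DNase I cuts chromatin where regulatory proteins leave the DNA exposed, so a called region marks an accessible promoter or enhancer.

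All mice were CD-1 (ICR) animals of 7 weeks. Hypophysectomized (hypox) mice lacked the pituitary, which the supplier had taken out. The groups were hypox females (2 libraries), intact females (4), untreated hypox males (2) and hypox males killed 30, 90 or 240 min after 1 intraperitoneal injection of recombinant rat GH at 125 ng per g body weight (2 each). Each library was a pool of 3 livers, except hypox female pool 1 with 2, so the spread between replicates is that between pools. Whether vehicle was given to the hypox males without GH, called untreated here, is not stated. Removal of the pituitary takes away its other hormones as well as GH. Intact males were not analysed here, so the injected males had no intact counterpart of their sex. The libraries carry codes whose meaning is not given. Both untreated hypox male pools carry G103, intact female pools 3 and 4 carry G93, and the other 10 libraries carry G92. GH treatment and code therefore cannot be told apart in males, nor can sex and code among hypox mice.

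Libraries held 13078268 to 33700120 tags, and 87 to 133 of the 166 member regions were called in each. Peaks on the Y chromosome numbered 63 to 91 in male and 1 to 3 in female libraries, as labelled. Intact female pool 3 stood apart. It lacked the start region, called in 10 or more libraries, of 13 of the 40 members. Among hepatocyte marker genes, 9 of the 9 found in the annotation had a region, and 8 had one in every library. Endothelial genes had 9 to 15 called regions in hypox female pools and 15 to 25 in intact female pools. They had 15 to 17 in untreated hypox males, 11 to 12 at 30 min, 10 to 12 at 90 min and 8 to 18 at 240 min after GH. Their part in the results below was not tested. Kupffer cell genes had a region at 1 of 8 genes, lymphocyte genes at 3 of 8, stellate genes at 5 of 8 and cholangiocyte genes at 2 of 6. In bulk liver, fewer cells in which a region is open and lower accessibility per cell cannot be told apart.

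Member regions were found in more of the libraries than those of other genes. Of the 166 regions, 51 (30.7%) were called in all 14 libraries, against 15.8% of 33877 regions linked to other protein-coding genes. A region called in every library was present at 30 of the 40 members (75.0%), against 35.6% of 13889 other protein-coding genes with a called region. Among 71 further genes of amino acid and nitrogen metabolism, described at the end, 67 had a region, and 42 of these (62.7%) had one in every library, as did 24.7% of their 283 regions. A called region within 1 kb of the start was present at 39 members (97.5%), against 72.2% of the other genes. The member without one was Kmo, whose first annotated start had none. Its region 11.7 kb downstream lay 69 bp from another annotated start of the gene. By place, 62 member regions lay in introns, 51 within 1 kb of an annotated start, 44 further upstream and 9 in exons. Members had a median of 4 regions each, against 2 for the other genes. These are descriptions, with no test, and genes are not replicates.

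The authors' fold enrichment is a peak's height over its local background. Among regions called in all libraries its median was 7.62 at members and 9.13 at other genes. The pileup, which is the number of extended tags stacked at a peak's summit, was scaled to 1000000 tags of its library and is called the signal here. Its median in the same regions was 4.72 at members and 3.12 at other genes. The highest enrichment at a member was 18.6, at the start of Mccc1, a subunit of the leucine-degrading enzyme methylcrotonyl-CoA carboxylase. The next were 18.5 upstream of Uroc1, the urocanase of histidine breakdown, and 18.3 in an intron of Gls2, the liver-type glutaminase.

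Of the 8 urea cycle genes, 7 had a start region in most libraries, and Otc did not. Cps1, the carbamoyl phosphate synthetase that begins the cycle, was called at its start in all 14 libraries. Its signal there was 1.88 and 2.70 in hypox females, against 3.71, 3.38, 5.73 and 5.75 in intact females. In males it was 2.87 and 2.14 without GH, 1.93 and 1.25 at 30 min, 2.096 and 3.01 at 90 min, and 2.24 and 1.30 at 240 min. Both hypox female pools lay below all 4 intact female pools. The region about 0.7 kb into Asl (argininosuccinate lyase) was also called in all 14. The starts of Ass1 (argininosuccinate synthase), Arg1 (arginase, which releases urea), Slc25a15 (the ornithine carrier of mitochondria) and Slc25a13 (the aspartate-glutamate carrier) were called in 13 libraries. Arg1 missed 30 min pool 1, and the other 3 missed intact female pool 3. Nags, whose product N-acetylglutamate activates Cps1, was called about 0.8 kb from its start in 11. Glul, glutamine synthetase, which traps ammonia that the cycle leaves, was called at its start in 13, within 1 kb of the start of 5830403L16Rik. That region had 2.54 and 2.04 in hypox females, against 2.45, 2.61 and 2.23 in the 3 intact female pools with a call, so the groups overlapped.

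**Figure D1:**
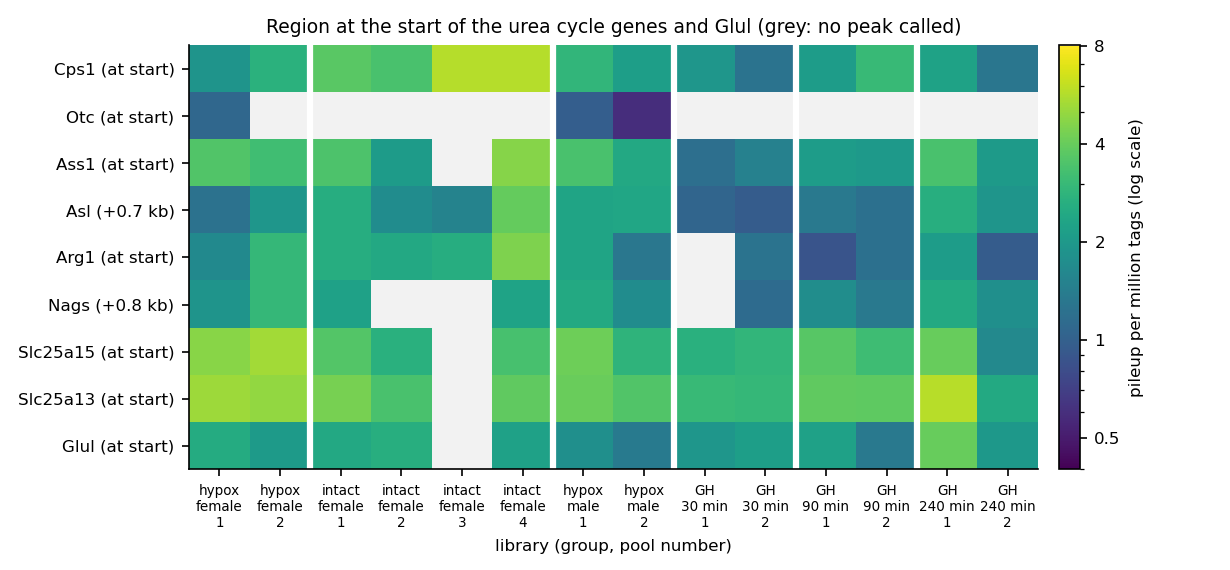
Signal (pileup per 1000000 tags, colour on a log scale) at the region nearest the start, among those called in most libraries, of 8 urea cycle genes and Glul, in each of 14 libraries, grouped by treatment with pool numbers. Otc has a call in 3 libraries only, and intact female pool 3 lacks Ass1, Nags, Slc25a15, Slc25a13 and Glul.

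Otc, the X-linked ornithine transcarbamylase, had no region called in all libraries. Its start was called in hypox female pool 1 with 1.09 and in the untreated hypox male pools with 0.976 and 0.594, and in none of the other 11 libraries. The 0.594 came from the deepest library, where the lowest signal of any called peak was 0.386. In the GH-treated libraries that lowest signal was 0.466 to 0.546, so a region this weak could be missed there. An intron 29.2 kb downstream was called at 30 and 90 min after GH. Its signal was 1.53 and 1.20 at 30 min and 0.815 and 0.937 at 90 min, with no call at 240 min or in untreated males. Among females, it was called only in hypox female pool 2, at 0.781. The sequences of both summits show what was exposed. They are 200 bases of mm9 on the plus strand, at chrX:9829314-9829513 (start) and chrX:9858534-9858733 (intron). Capitals mark the motif matches listed with them.
Otc start: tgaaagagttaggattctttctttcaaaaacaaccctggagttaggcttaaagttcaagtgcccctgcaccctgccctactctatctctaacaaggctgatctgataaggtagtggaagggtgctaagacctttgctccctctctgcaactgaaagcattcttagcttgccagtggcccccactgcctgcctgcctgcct
Otc intron: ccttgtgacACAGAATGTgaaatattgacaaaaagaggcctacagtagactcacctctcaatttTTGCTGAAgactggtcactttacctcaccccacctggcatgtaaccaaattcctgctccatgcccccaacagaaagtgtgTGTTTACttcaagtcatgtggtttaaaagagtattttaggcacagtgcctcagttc
The intron window held ACAGAATGT, a match to the glucocorticoid receptor motif ACANNNTGT. It also held TTGCTGAA, a match to the C/EBP motif TTGCNNAA, and TGTTTAC, the FOXA motif. The start window held none of the 7 motifs searched.

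The 7 motifs were searched on both strands in 200 bases around every summit. The C/EBP motif was in 27 of the 166 member regions (16.3%), against 15.1% of all 48148 regions, and the glucocorticoid receptor motif was in 13 (7.83%), against 6.41%. The FOXA motif was in 12 (7.23%), against 5.90%, and the STAT5 motif TTCNNNGAA was in 7 (4.22%), against 9.20%. The cAMP response element TGACGTCA was in 2 (1.20%), against 1.03%. The HNF4A motif CAAAGTCCA and the HNF1 motif were in 3 each (1.81%), against 1.71% and 1.61%. A match describes letters in a window and not a bound site. Motifs can overlap one another, and the shares were not tested.

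Hypox females were compared with intact females to ask what loss of the pituitary changes at these genes. Of the 51 member regions called in all libraries, 8 had a higher and 4 a lower signal in hypox females (limma on log2 signal centred on each library's median region, adjusted p under 0.05 over 7423 regions). Over all regions the shares were 11.9% higher and 9.93% lower, so the members' 8 of 51 and 4 of 51 lay close to these shares. Fewer passed under other processing. With fold enrichment in place of pileup, 1 was higher (Bhmt) and 1 lower (Gpt, not among the 4), against 3.64% and 4.59% of all regions. In a fit of the female pools alone, 1 of 63 was higher (Gnmt) and 1 lower (Asl), against 4.48% and 4.58%. Quantile normalization, chosen after seeing the data, gave 2 higher (Gnmt and Ahcy) and the same 4 lower, against 8.51% and 9.83%. The median log2 difference was 0.01 at members and 0.07 over all regions. Of the 51, 26 were positive, against 54.3% of all regions. Of the 8 higher regions, 4 belonged to the methionine and homocysteine group, where 10 of 11 tested regions had a positive difference (median 0.70). These 11 are not separate genes, since 4 lay at Mat1a and 2 each at Gnmt and Ahcy. Of the 4 lower regions, 3 belonged to urea cycle genes, where 3 of 12 had a positive difference (median -0.35). Neither direction was particular to these 2 roles. Branched-chain regions had a median of 0.808 over 3, of which 2 were among the 8 higher. Those of proline, lysine and ornithine had -0.547 over 2. The other medians were 0.127 over 3 (glutamine and transaminases), 0.011 over 9 (tryptophan), -0.086 over 4 (tyrosine) and -0.116 over 7 (serine, glyoxylate and histidine). Differences between roles were not tested.

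In the methionine group the largest difference was at Gnmt, the glycine N-methyltransferase that uses up S-adenosylmethionine. Its region 3.0 kb downstream of the first start, chr17:46862724-46863763, within 1 kb of another annotated start, had 5.58 and 9.49 in hypox females, against 3.83, 2.85, 2.22 and 6.12 in intact females. The groups overlapped before centring, and the centred log2 difference was 1.23 ± 0.27 (SE, adjusted p = 0.00556). Upstream of Ahcy by 6.8 kb, the gene of the hydrolase that splits S-adenosylhomocysteine, hypox females had 6.38 and 7.27, against 5.03, 3.56, 2.75 and 5.89 in intact females, with no overlap. The difference there was 0.89 ± 0.23 (adjusted p = 0.0111). At the start of Bhmt, the betaine-homocysteine methyltransferase, hypox females had 18.7 and 13.99, against 10.9, 5.28, 8.33 and 14.2 in intact females (log2 1.00 ± 0.30, adjusted p = 0.0264). Just upstream of Mat1a, the liver methionine adenosyltransferase, hypox females had 10.9 and 12.8, against 7.96, 8.37, 4.59 and 7.61 in intact females (log2 0.94 ± 0.26, adjusted p = 0.0170). These pools did not overlap at Mat1a, whereas 1 intact pool lay within the hypox range at Bhmt.

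The other 4 higher regions were in a Gls2 intron (log2 0.89 ± 0.24, adjusted p = 0.0157), at the Mccc1 start (1.09 ± 0.36, adjusted p = 0.0377), at Bckdha and at Hpd. Bckdha encodes a subunit of the branched-chain ketoacid dehydrogenase, and its region also lies at the start of Exosc5. There the difference was 0.81 ± 0.24 (adjusted p = 0.0240). Hpd, the hydroxyphenylpyruvate dioxygenase of tyrosine breakdown, had 0.76 ± 0.27 (adjusted p = 0.0482).

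The lowest difference was 6.4 kb upstream of Asl, at chr5:130507166-130508106, with 1.09 and 2.58 in hypox females, against 4.97, 4.16, 4.21 and 5.57 in intact females. The pools did not overlap, and the log2 difference was -1.32 ± 0.29 (adjusted p = 0.00579). An intron of Slc25a13, 14.6 kb downstream, followed with -1.01 ± 0.30 (adjusted p = 0.0254), and the Cps1 start had -0.83 ± 0.29 (adjusted p = 0.0463). An intron of Fah, the fumarylacetoacetase that ends tyrosine breakdown, had -0.85 ± 0.24 (adjusted p = 0.0205), with 1.96 and 3.84 in hypox females, against 5.74, 4.27, 5.73 and 6.68 in intact females and no overlap.

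These calls depended on single pools. Without hypox female pool 1 the calls at Ahcy, Bhmt, Asl and Fah were lost, and the higher count was 1. Without hypox female pool 2 the calls at Gnmt and Slc25a13 were lost, and those at Gls2, Mat1a and Bckdha were lost without either. Bckdha was also lost without intact female pool 1 and Slc25a13 without intact female pool 4, where 2 regions stayed lower. The calls at Mccc1, Hpd and Cps1 passed in 5, 2 and 2 of the 14 fits that leave out 1 library. Without intact female pool 3 there were 8 higher and 5 lower, against 1120 and 729 of all 7423 regions. Without centring, none was higher and 2 were lower (Asl and Slc25a13), and the medians were -0.16 at members and -0.10 over all regions. Within code G92, with intact female pools 1 and 2 alone, 6 were higher and 3 lower, against 10.4% and 7.03% of all regions.

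Presence of calls gave a further view. Of 156 member regions called in these libraries, 1 had a call in both hypox female pools and in no intact female pool (0.641%, against 0.678% of all regions). It lay at 1 of the 40 genes, against 1.87% of other genes. The reverse, a call in all 4 intact pools and in no hypox pool, held for 9 (5.77%, against 4.69%). These were at 8 of the 40 genes, against 8.07% of other genes. Members had more regions each than other genes (median 4 against 2). The shares of genes, here and below, take no account of this. With no call there is no value, so these counts carry no test. The strongest intact-only region was in an intron of Cth, the cystathionine gamma-lyase that makes cysteine, with an enrichment of 8.59 ± 1.85 (SD, n = 4). Another 2 belonged to Kynu, the kynureninase of tryptophan breakdown. Its start had 1.50, 0.831, 1.45 and 1.86 in intact females and a region 8.7 kb upstream had 1.08, 0.891, 1.53 and 1.76. The others were upstream of Agxt (glyoxylate aminotransferase), Bhmt and Gnmt, in an intron of Haao, and upstream of Uroc1 at the start of Chst13. The last was 30.2 kb downstream in Hal (histidase), in an untranslated exon. The upstream Agxt region, with 2.33, 2.20, 1.84 and 4.08 in intact females, was also called in both untreated hypox male pools. The region called in both hypox female pools and no intact female pool was 4.7 kb upstream of Glul, with 1.09 and 1.02, and it was also called in 240 min pool 1 (1.52). Without hypox female pool 2 the intact-only count was 20, and without pool 1 the hypox-only count was 9.

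**Figure D2:**
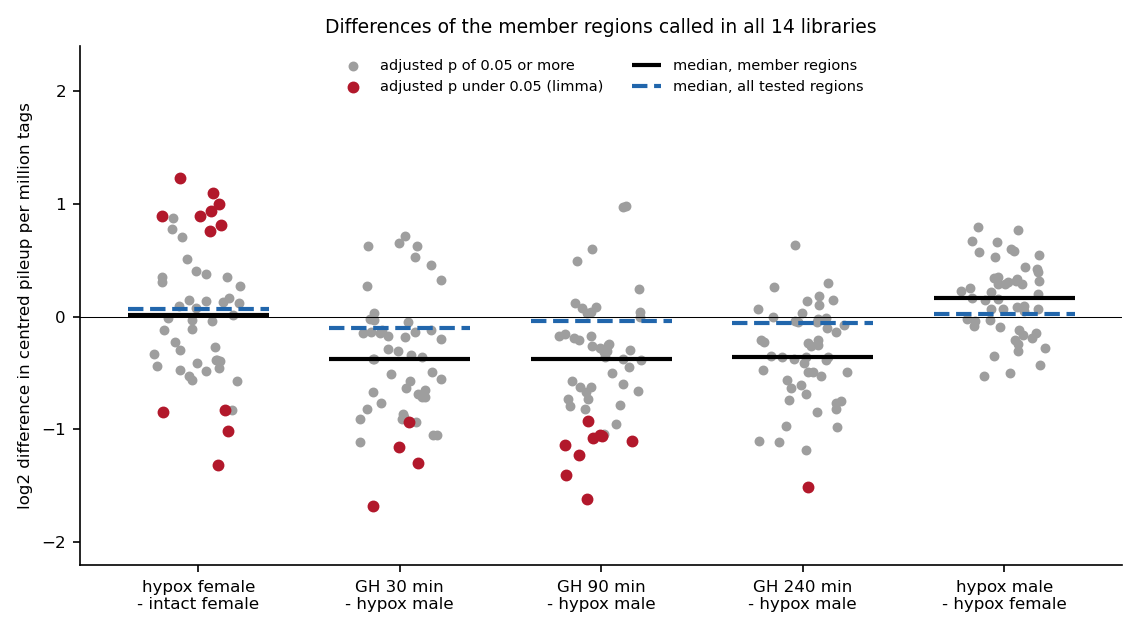
Log2 difference in centred signal of the 51 member regions called in all 14 libraries, for 5 comparisons named below the axis (first group minus second). Red points passed an adjusted p of 0.05, the black line is the median of the member regions and the dashed blue line that of all 7423 regions. In the 3 GH comparisons the member median lies below that of all regions, and all red points are negative.

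GH-treated hypox males were compared with untreated hypox males at each time to ask what 1 pulse of GH changes. None of the 51 member regions had a significantly higher signal at any time in limma. At 30 min 4 were lower, against 5.33% of all regions higher and 2.14% lower. At 90 min 9 were lower, against 6.63% higher and 5.25% lower. At 240 min 1 was lower, against 0.593% higher and 0.283% lower. The median log2 difference of the members was -0.38, -0.37 and -0.35 at 30, 90 and 240 min, against -0.10, -0.04 and -0.06 over all regions. At an unadjusted p under 0.05, 1, 2 and 1 of the 51 members were higher at the 3 times, against 11.7%, 12.5% and 6.84% of all regions. By the same measure 15, 15 and 10 were lower, against 10.1%, 12.6% and 7.26%. The 3 times share their untreated pools. The 13 tested regions of hepatocyte marker genes had medians of -0.36, -0.48 and -0.19, with regions of Cyp2e1 and Fgb higher at 30 and 90 min and 1 of Alb lower at 90 min. Their part in the members' values was not tested. By role, the urea cycle regions had medians of -0.63, -0.62 and -0.21 over 12 regions. The serine, glyoxylate and histidine regions had -0.51, -0.62 and -0.39 over 7. Glutamine and transaminase regions had -0.711, -0.922 and -0.416 over 3, and methionine and homocysteine regions -0.552, -0.373 and -0.527 over 11. Tryptophan regions had -0.147, -0.275 and -0.352 over 9, and tyrosine regions -0.112, -0.235 and -0.229 over 4. Those of proline, lysine and ornithine had -0.573, -0.785 and -0.364 over 2, and branched-chain regions -0.182, 0.074 and -0.249 over 3.

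The region 6.8 kb upstream of Ahcy, chr2:154905754-154907316, was the only one lower at all 3 times. Its signal was 9.99 and 7.83 in untreated males, 4.47 and 4.06 at 30 min, 3.90 and 3.75 at 90 min, and 5.21 and 3.41 at 240 min. No GH-treated pool reached the lower untreated pool. The log2 difference was -1.15 ± 0.26 at 30 min (adjusted p = 0.0121), -1.40 ± 0.26 at 90 min (adjusted p = 0.00240) and -1.51 ± 0.26 at 240 min (adjusted p = 0.00913). The call at 90 min passed in all 14 fits that leave out 1 library, with adjusted p up to 0.0379. The region was higher in hypox than in intact females, as given above. The summit window, chr2:154906896-154907095 of mm9 on the plus strand, is shown because it carries this result.
Ahcy upstream: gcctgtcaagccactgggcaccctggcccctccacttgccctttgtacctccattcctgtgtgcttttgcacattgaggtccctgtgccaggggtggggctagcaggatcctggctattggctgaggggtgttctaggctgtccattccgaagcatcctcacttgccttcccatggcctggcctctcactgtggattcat
None of the 7 motifs was in it, and its GC content was 58.5%. No letter is therefore in capitals.

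Another 4 regions were lower at 90 min, 3 of them at 30 min too. Prodh2, a hydroxyproline dehydrogenase, had at its start 3.27 and 1.84 in untreated males, 1.13 and 0.598 at 30 min, 1.05 and 0.803 at 90 min, and 3.55 and 1.57 at 240 min. Its log2 difference was -1.68 ± 0.44 at 30 min (adjusted p = 0.0264) and -1.61 ± 0.44 at 90 min (adjusted p = 0.0238). The Asl region about 0.7 kb from the start had 2.30 and 2.34 in untreated males, 1.07 and 0.956 at 30 min, 1.34 and 1.20 at 90 min, and 2.61 and 1.91 at 240 min. Its difference was -1.30 ± 0.30 at 30 min (adjusted p = 0.0125) and -1.06 ± 0.30 at 90 min (adjusted p = 0.0269). At Gpt, the alanine aminotransferase, the region about 0.6 kb upstream had 8.04 and 6.08 in untreated males, 4.14 and 3.71 at 30 min, 4.08 and 3.41 at 90 min, and 8.83 and 6.00 at 240 min. Its difference was -0.94 ± 0.27 at 30 min (adjusted p = 0.0405) and -1.10 ± 0.27 at 90 min (adjusted p = 0.0129). Gnmt, 6.4 kb upstream and linked to Cnpy3 too, had 5.17 and 4.63 in untreated males, 2.60 and 2.27 at 30 min, 2.45 and 2.34 at 90 min, and 3.98 and 4.57 at 240 min. It passed at 90 min only (-1.22 ± 0.34, adjusted p = 0.0257). In all 4 regions both pools at 30 and 90 min lay below both untreated pools, and at Prodh2, Asl and Gpt the 240 min pools overlapped with them. The change between 240 min and the earlier times did not pass for any of these 4, with the smallest adjusted p of 0.220 at Asl for 240 against 30 min.

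The remaining 4 regions were lower at 90 min alone. Of these, 2 lay in introns of Afmid, the arylformamidase of tryptophan breakdown, and were linked to Tk1 too, with -1.14 ± 0.34 (adjusted p = 0.0356) and -1.05 ± 0.32 (adjusted p = 0.0417). The Gls2 intron region had -0.92 ± 0.28 (adjusted p = 0.0394). The region 6.4 kb upstream of Asl had -1.07 ± 0.34 (adjusted p = 0.0475) and was, as given above, lower in hypox than in intact females. A difference between 90 min and the other times did not pass at these regions.

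**Figure D3:**
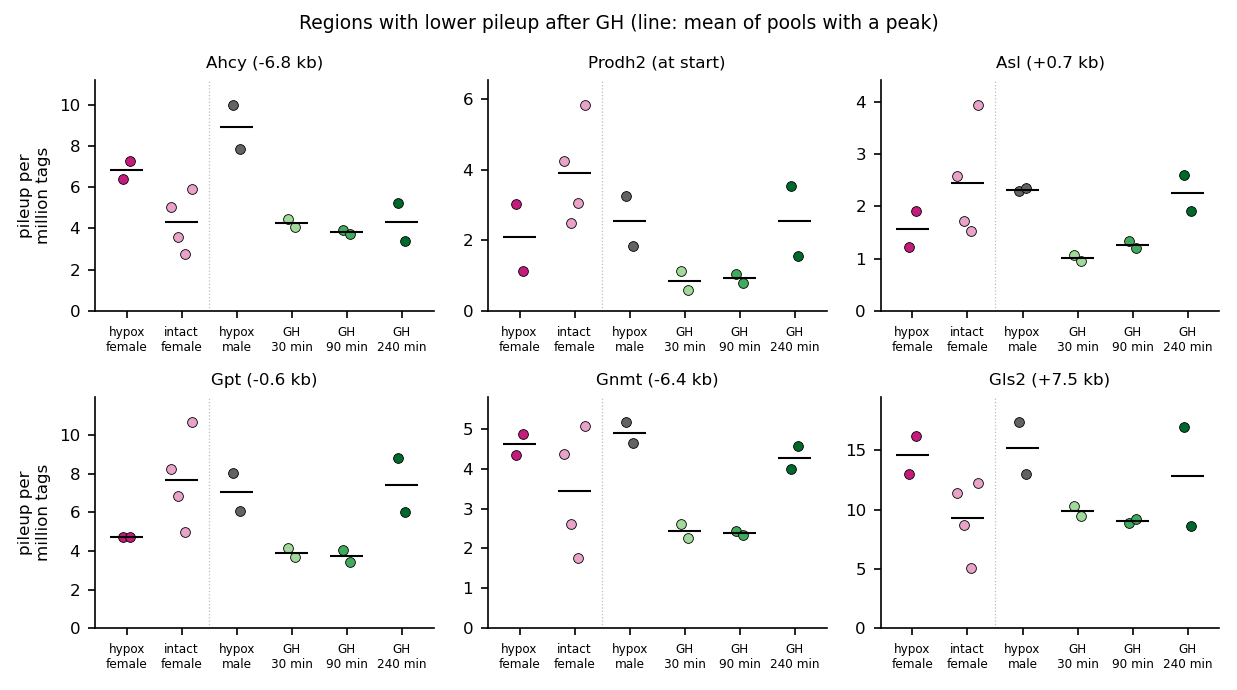
Signal (pileup per 1000000 tags, axis from 0) of 6 regions called lower after GH, with 1 point per pool and a line at the group mean. From left to right stand hypox females, intact females, untreated hypox males and hypox males 30, 90 and 240 min after GH. At each region the 30 and 90 min pools lie below both untreated male pools.

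The calls after GH rested on the untreated and the GH-treated pools alike and on the scaling. Every one of them except Ahcy at 90 min was lost when any of the 4 pools compared was left out. The log2 differences of these calls stayed negative in every fit that leaves out 1 library. At 30 min they ranged from -1.183 to -1.126 at Ahcy and from -2.042 to -1.311 at Prodh2. Some of the calls were also lost without other pools. Gpt at 30 min passed in 5 of the 14 fits that leave out 1 library. At 90 min Gls2 and Asl 6.4 kb upstream passed in 6 each, and Afmid 19.2 kb downstream in 4. Without any 1 of those pools the lower counts were 0, 1 and 0 at 30, 90 and 240 min, and without intact female pool 3 they were 13, 15 and 8, with 2 higher at 90 min. Over all 7423 regions, 491, 744 and 183 were lower at the 3 times without intact female pool 3, and 743 were higher at 90 min. Without centring, Prodh2 was the 1 region lower at 30 min and at 90 min (adjusted p = 0.0268 and 0.0445), and none was lower at 240 min. The shift that centring takes out was 0.10, 0.19 and 0.44 on the log2 scale at the 3 times. The uncentred member medians were -0.28, -0.18 and 0.09, against 0.00, 0.15 and 0.38 over all regions, so the members' direction at 240 min turned. With the authors' fold enrichment in place of pileup, the 1 lower call was Ahcy at 90 min (adjusted p = 0.0411), and the member medians were -0.02, -0.16 and -0.07, against -0.03, -0.02 and -0.03 over all regions.

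Hypox females share the code G92 with the GH-treated males. Against them, in the fit over all libraries, the smallest adjusted p of the 51 regions was 0.0716, 0.0864 and 0.0752 at the 3 times, and the member medians were -0.28, -0.32 and -0.20. In a fit of the G92 libraries alone, 2, 6 and 3 of the 51 regions were lower, against 5.7%, 3.97% and 4.19% of all regions, and 3, 3 and 0 were higher, against 7.1%, 6.05% and 2.96%. Of these counts, only the 6 lower at 90 min lay well above the share of all regions, and the 3 lower at 240 min lay close to it. Ahcy was among the lower ones at 90 min (-0.82, adjusted p = 0.0173) and at 240 min (-0.93, adjusted p = 0.0126). Gnmt 6.4 kb upstream (adjusted p = 0.0476) and the Gls2 intron (adjusted p = 0.0122) were among those at 90 min. Prodh2, Gpt, Asl and Afmid, called against untreated males, did not pass here at 30 or 90 min. Their smallest adjusted p was 0.120, at Prodh2 at 30 min. The Gpt difference was -0.17 at 30 min and -0.33 at 90 min. The higher ones were Cps1 6.2 kb upstream, Aass and Fah at 30 min, and Cps1 9.2 kb upstream, Kmo and Fah at 90 min. This comparison also differs in sex.

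Calls present on one side named other regions. Of 126 member regions, 3 had a peak in each 30 min pool but in no untreated pool (2.38%, against 4.97% of all regions). For 90 min there were 4 of 124 (3.23%, against 5.57%) and for 240 min 1 of 126 (0.794%, against 2.61%). They lay at 3, 4 and 1 of the 40 genes, against 7.77%, 8.38% and 4.40% of other genes. The reverse, a call in both untreated pools and in no GH pool, held for 10 regions at 30 min (7.94%, against 8.30%). It held for 7 at 90 min (5.65%, against 7.50%) and 8 at 240 min (6.35%, against 3.97%). These were at 10, 7 and 8 of the 40 genes, against 15.2%, 13.1% and 7.77% of other genes. The rule is looser with 1 pool left out, and the GH-only counts were then 5 to 7, 5 to 7 and 1 to 10, the 10 without 240 min pool 2. The untreated-only counts were then 13 to 19, 8 to 20 and 8 to 15, each highest without pool 1 of that time. With 2 pools a side, the smallest p an exact test could give is 0.333, so none was made.

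Oat, Bckdhb and the Otc intron were GH-only at both 30 and 90 min. Oat encodes ornithine aminotransferase, and its intron region 4.7 kb downstream had 2.33 and 1.43 at 30 min and 1.51 and 1.40 at 90 min, with no call in untreated males. It was also called at 240 min in pool 1 (1.88), in hypox female pool 2 (1.98) and in intact female pools 3 and 4 (2.29 and 2.04). Bckdhb is another subunit of the branched-chain ketoacid dehydrogenase, and its region 2.9 kb upstream had 1.27 and 0.896 at 30 min and 1.16 and 0.937 at 90 min. It was otherwise called in intact female pools 3 and 4 alone, at 1.30 and 1.48. The lowest signal of any called peak was 0.386 to 0.546 by library. The summit windows are at chr7:139763286-139763485 and chr9:83815746-83815945, on the plus strand of mm9.
Oat intron: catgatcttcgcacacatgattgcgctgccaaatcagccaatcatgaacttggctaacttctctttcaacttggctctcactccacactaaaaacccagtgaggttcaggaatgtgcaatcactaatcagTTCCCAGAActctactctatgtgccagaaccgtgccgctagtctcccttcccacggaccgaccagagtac
Bckdhb upstream: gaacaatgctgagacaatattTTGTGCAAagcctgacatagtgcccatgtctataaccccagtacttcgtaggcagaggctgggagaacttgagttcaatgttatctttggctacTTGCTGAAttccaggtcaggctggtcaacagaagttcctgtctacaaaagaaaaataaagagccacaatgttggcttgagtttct
Capitals in the Oat window mark TTCCCAGAA, a match to the STAT5 motif. In the Bckdhb window they mark TTGTGCAA and TTGCTGAA, matches to the C/EBP motif on the minus and plus strand. A Mat1a intron was GH-only at 90 min (1.34 and 1.87) and a distant Kynu intron at 240 min (0.579 and 0.887).

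In untreated males, 3 regions were called in both pools that had no call in any GH-treated pool, at times that share these controls. They were the Otc start, the Kynu start (1.38 and 0.890) and a region 6.8 kb upstream of Gnmt (1.72 and 2.08). The Otc start was near the lowest called signals in 1 pool, as given above. Those that met the rule at 30 min alone were regions of Agxt (3.5 kb downstream), Mat1a, Hgd (homogentisate dioxygenase), Got1 (aspartate aminotransferase), Slc25a13 and the start of Sdsl, which Sds shares. The upstream Agxt region was missing at 30 and 90 min. At 90 min the others were at Nags, Gpt and Asl, and at 240 min they were at Kmo, Bhmt2, Ass1, Aass and Bckdhb. At the Sdsl start untreated males had 2.53 and 2.76, with no call at 30 min, 0.990 and 1.27 at 90 min, and 3.40 and 1.23 at 240 min. Sds and Sdsl encode serine dehydratase and its relative.

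**Figure D4:**
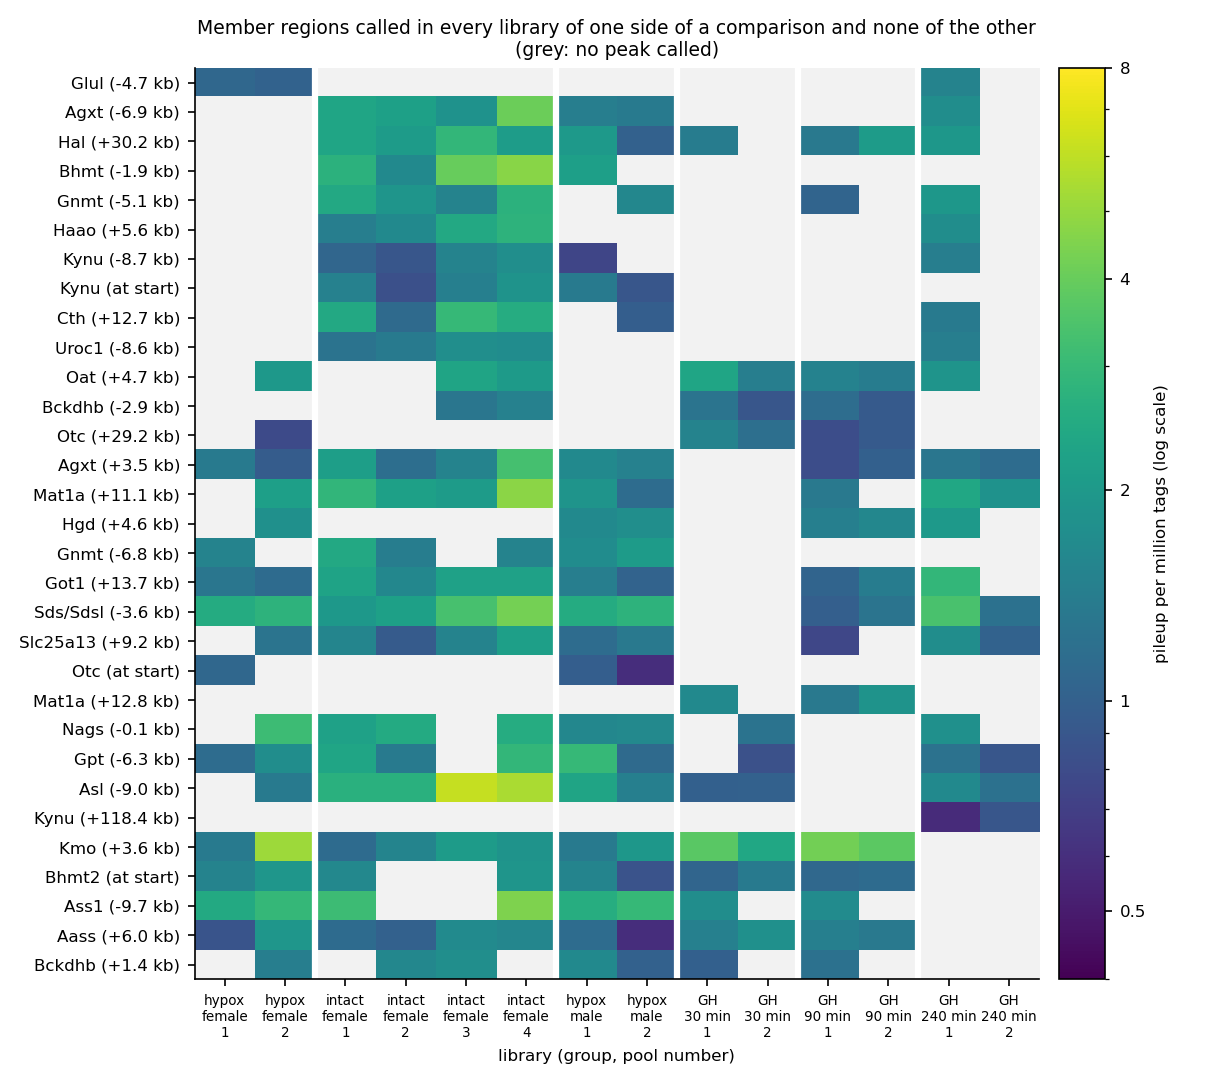
Signal (pileup per 1000000 tags, colour on a log scale, grey for no call) in each of 14 libraries of the 31 member regions called in every library of one side of a comparison and in none of the other. Rows give the gene and the distance of the summit from its start. The first 10 rows separate hypox from intact females, and many of the rest are absent in 1 or more GH-treated pools.

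Kmo, the kynurenine 3-monooxygenase, had the 1 member region that differed between times. This region, 11.7 kb downstream at chr1:177561730-177562474 and linked to Fh1 too, had 1.55 and 1.51 in untreated males, 3.20 and 2.27 at 30 min, 4.37 and 2.68 at 90 min, and 1.74 and 0.955 at 240 min. Both pools at 30 and 90 min were above both untreated pools, and the 240 min pools lay on either side of them. The log2 difference against untreated males was 0.72 ± 0.43 at 30 min (adjusted p = 0.362) and 0.97 ± 0.43 at 90 min (adjusted p = 0.168). The log2 difference of 240 min minus 90 min was -1.65 ± 0.43 (adjusted p = 0.0441). Over all regions 1.05% were higher and 1.70% lower. Of the 14 fits that leave out 1 library this call passed in 4, those without intact female pool 2 or 3 or hypox female pool 1 or 2, and the highest adjusted p in the others was 0.381. Between 240 and 30 min no member passed in limma, against 0.148% of all regions higher and 1.02% lower. At an unadjusted p under 0.05, 3 of the 51 members were higher and 3 lower, against 5.63% and 7.58% of all regions, so the members' shares lay close to those of all regions. The largest differences were at Kmo (-1.40 ± 0.43, adjusted p = 0.120), Prodh2 (1.18 ± 0.44, adjusted p = 0.225) and a noncoding exon of Asl, 2.6 kb downstream (1.00 ± 0.33, adjusted p = 0.155). Between 90 and 30 min none of the 7423 regions passed (0.0%). At an unadjusted p under 0.05, 0 members were higher and 1 lower, against 1.91% and 2.48% of all regions. The largest differences there, at Kynu, the Cps1 start and Fah, had an adjusted p of 0.965.

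Other regions of Kmo, Cps1 and Oat were picked after their values had been seen, to go with it. A Kmo intron 31.7 kb downstream, chr1:177581678-177582503, which holds a STAT5 motif match, had 1.03 in 1 untreated pool and no call in the other. It had 4.00 and 3.17 at 30 min, 5.65 and 4.15 at 90 min, and 3.33 and 1.77 at 240 min. A Kmo intron 3.6 kb downstream had 1.38 and 1.96 in untreated males, 3.74 and 2.39 at 30 min, 4.25 and 3.75 at 90 min, and no call at 240 min. It had 5.17 in hypox female pool 2 and 1.38 in pool 1. The region 9.2 kb upstream of Cps1, chr1:67159917-67160545, also with a STAT5 motif match, had 4.19 and 3.65 in untreated males, 7.40 and 5.62 at 30 min, 9.37 and 8.30 at 90 min, and 7.24 and 3.68 at 240 min. Its difference at 90 min was 0.98 ± 0.33 (adjusted p = 0.0649). The Oat intron 1.6 kb downstream had 1.78 and 1.34 in untreated males, 4.74 and 2.15 at 30 min, 2.91 and 3.81 at 90 min, and 6.52 and 2.87 at 240 min. At 30 and 90 min both GH pools lay above every untreated value in each of these regions. The windows of Kmo 3.6 and 11.7 kb downstream, Cps1 6.2 kb upstream and Oat 1.6 kb downstream held no STAT5 match. Over all members the STAT5 share was 4.22%, against 9.20% of all regions, as given above.

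In fits of only the 4 pools compared, on the regions called in all 4, 6 of 72 member regions were higher at 30 min, 5 of 77 at 90 min and 2 of 83 at 240 min. Over all regions 8.96%, 11.4% and 6.33% were higher. The members' count lay close to that share at 30 min and below it at 90 and 240 min. At 90 min these were both upstream Cps1 regions (adjusted p = 8.1e-05 and 0.0053), Kmo at 3.6 and 11.7 kb (0.0022 and 0.00508) and Oat at 1.6 kb (0.00653). At 30 min they were the same Cps1 and Oat regions (0.0246, 0.0267 and 0.0373), 2 regions of Aass, the first enzyme of lysine breakdown (0.0472 and 0.0214), and the Fah intron (0.0292). Oat passed at 240 min as well (0.00369). The same fits had 18, 24 and 13 lower member regions, against 5.29%, 9.72% and 4.6% of all regions, including Ass1 at its start at 30 and 90 min (0.00877 and 0.0362) and Arg1 at 90 min (0.0237). Each such fit estimates the spread from 4 pools.

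**Figure D5:**
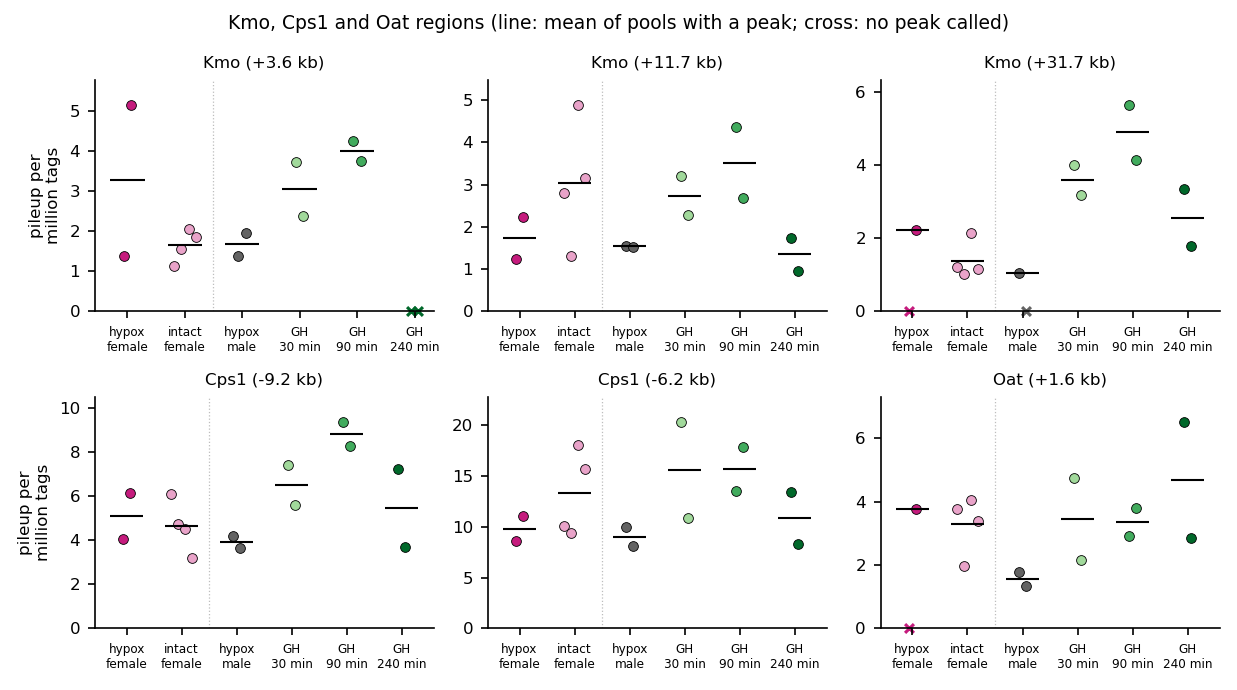
Signal (pileup per 1000000 tags, axis from 0) of 3 Kmo regions, 2 Cps1 regions and 1 Oat region, with 1 point per pool, a cross where no peak was called and a line at the mean of the pools with a call. Groups stand in the order hypox female, intact female, untreated hypox male, and GH at 30, 90 and 240 min. The 90 min pools lie above the untreated male pools with a call in each panel. The 240 min pools lie below the 90 min pools at the Kmo regions 11.7 and 31.7 kb downstream and have no call at 3.6 kb.

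Untreated hypox males were compared with hypox females, a contrast of sex that the code G103 shares. None of the 51 member regions passed in limma, and over all regions 1 was higher (0.0135%) and 2 lower (0.0269%). At an unadjusted p under 0.05, 4 members were higher and 0 lower, against 3.41% and 3.93% of all regions. The largest difference was at Asl, about 0.7 kb from its start, with 2.30 and 2.34 in males, against 1.23 and 1.92 in females (log2 0.79 ± 0.30, adjusted p = 0.576). The next were Gpt (0.77 ± 0.27, adjusted p = 0.541) and an untranslated exon of Hal, 29.1 kb downstream (0.67 ± 0.31, adjusted p = 0.647). The median was 0.16 at members and 0.02 over all regions, or -0.04 and -0.18 without centring. In both male pools and no female pool, 3 of 126 regions were called (2.38%, against 4.86%), at 3 of the 40 genes, against 8.28% of other genes. They were the upstream Agxt region, the Kynu start and another Hal region, 30.2 kb downstream in an untranslated exon. The reverse held for 1 region (0.794%, against 0.684%), upstream of Glul, and for 1.18% of other genes. With 1 pool left out the counts were 5 to 16 and 1 to 8, the 16 without hypox female pool 2 and the 8 without hypox female pool 1.

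The rest of the pathway was described through the 71 further genes of amino acid and nitrogen metabolism. Of their 70 regions called in all libraries, 7 were higher and 6 lower in hypox than in intact females. The higher ones included Slc7a2, a cationic amino acid carrier, and Bcat2, a branched-chain aminotransferase. The lower ones included Ddc, the aromatic amino acid decarboxylase. After GH, 6, 12 and 1 were lower at 30, 90 and 240 min. Tat, the tyrosine aminotransferase, Sardh (sarcosine dehydrogenase) and Qdpr, which regenerates tetrahydrobiopterin, had a lower region at 30 and at 90 min. The median log2 difference after GH was -0.29, -0.31 and -0.12, against -0.38, -0.37 and -0.35 at the 40 members.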

How the data were processed

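DNase-seq was done on 14 pools of mouse liver. The authors aligned reads with Bowtie2 to mm9, per the submitters' processing notes, and called peaks with MACS2 2.1.0.20150731 at a q cutoff of 0.05, with a shift of -100 and an extension of 200 bp and no control library, per the file headers. Each deposited peak has a pileup signal, a fold enrichment ratio, and its p-value and q-value on the −log10 scale, all by the authors' MACS2. Fold enrichment and −log10 values served to describe, rank and filter peaks. Lists differ in depth and length, so no call means not detected at that depth. The combined list of each group was not used here.

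Peaks on autosomes and X were merged at 1 bp overlap and linked to GENCODE vM1 genes. Pileup per 1000000 tags, logged with no pseudocount and centred on each library's median region, was tested with limma 3.58.1 (trend, 2-sided, Benjamini-Hochberg over the 7423 regions called in all 14 libraries, threshold 0.05) in 1 fit of all 14 libraries. This omits regions that any library lacks. The fit was tested on simulated data. Named were the start regions of the urea cycle genes and Glul, regions specific to one side, up to 10 regions per direction with the smallest adjusted p under 0.05 and, where none passed, the 3 largest differences. Members and lists were chosen with earlier results of these data known. Sequences are from the mm9 genome in the 200 bases around a summit. Alternatives covered peak strength, overlap, list length, upstream distance, scaling, fold enrichment, a pool number term, library code and each library left out. Coordinates are 1-based.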

Additional observations from a re-analysis of the deposited data

Results flagged for a closer look

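In 84 values with a call in all 4 intact female pools, 4 had 1 pool far from the other 3, beyond Dixon's 95% limit, and chance flags about 1 group in 20. At the Kmo intron 31.7 kb downstream, the ratio of gap to range was 0.834, with pool 3 at 2.14, against 1.20, 1.01 and 1.16. At the Arg1 start the ratio was 0.92, with pool 4 at 4.50, against 2.57, 2.43 and 2.60. At the Got1 intron 13.7 kb downstream it was 0.916, with pool 2 at 1.60, against 2.27, 2.22 and 2.23 in the others. At the Bckdha intron 2.9 kb downstream it was 0.853, with pool 1 at 10.5, against 7.24, 7.72 and 7.24. Values are pileup per 1000000 tags.

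The Kmo region 11.7 kb downstream differed between times after GH. Its log2 difference of 240 min minus 90 min was -1.655 in the limma fit (adjusted p = 0.0441).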

How the results depend on the processing

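Of 278 values of the named regions under other settings, 187 kept their direction and side of the threshold, 86 no longer passed, 5 newly passed and none turned its direction. With 1 library left out, 375 of 504 kept both, 128 no longer passed and 1 newly passed. Both totals include regions named where none passed in the fit of all 14 libraries, for which keeping their side means still not passing. By setting, 25 of 36 no longer passed with fold enrichment and 23 of 36 without centring. This held for 14 of 26 within G92, 11 of 36 with quantile normalization and 10 of 36 with only the libraries compared. It held for 3 of 36 with a pool number term. All 36 kept both with a pseudocount of 1 or a mean pileup of at least 20. The pooled counts therefore do not measure how stable the calls were. Causes were not tested. Counts of member regions moved as follows, where the first of 2 counts is for regions called only or higher in the group named first and the second for those called only or lower on the other side.

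For regions called on one side in hypox against intact females, hypox-only was 2 with lists shortened to equal length, 2 where a peak had to cover 50% of a region, and 0 at −log10 q of at least 5. Hypox-only and intact-only were 0 and 4 with the gene body or 1 kb upstream. For GH against untreated males, equal length gave 5 GH-only at 30 min and 2 at 240 min. The 50% rule gave 22 untreated-only at 30 min, and 2 and 18 at 90 min. At −log10 q of 5 or more, GH-only was 2 at 90 min and 0 at 240 min. The short upstream window gave 3 untreated-only at 90 min. Against hypox females within G92, GH-only was 1 at 30 min and the hypox female side 4 at each time. For hypox males against hypox females, the 50% rule gave 7 male-only, and female-only was 2 at equal length, 0 in the short window and 0 for strict peaks. No value within G92 was possible for this contrast.

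In the fits, fold enrichment gave 1 and 1 for hypox against intact females, and 0, 1 and 0 lower after GH. Without centring these were 0 and 2, and 1, 1 and 0 lower. With only the libraries compared they were 1 and 1, then 6 and 18, 5 and 24, and 2 and 13 after GH at 30, 90 and 240 min, then 1 and 3 for 240 against 30 min and 6 and 5 for 240 against 90 min. A pseudocount of 1 gave 1 higher at 90 min. Quantile normalization, chosen after seeing the data, gave 2 higher in hypox females. Within G92 the GH counts were 3 and 2, 3 higher, and 3 lower at 240 min. For 240 against 90 min the lower count was 0 with fold enrichment, without centring and with quantile normalization.

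The labels number pools in each group, with nothing that pairs them, and correlations of pool differences were 0.261, 0.147, 0.031, -0.023 and -0.029 over 7423 regions. A replicate block gave 2 and 16 at 30 min, 2 and 17 at 90 min and 8 lower at 240 min, 2 and 4 for 240 against 30 min, and 4 and 4 for 240 against 90 min. Over all 7423 regions the block gave, in the same order, 739 and 636, 887 and 871, 289 lower, 143 and 301, and 383 and 494.

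With 1 library left out, one-side counts ranged 1 to 9 and 9 to 20 (females), 5 to 7 and 13 to 19, 5 to 7 and 8 to 20, 1 to 10 and 8 to 15 (GH times), and 5 to 16 and 1 to 8 (hypox males against hypox females). Fit counts ranged 1 to 8 and 2 to 5 (females), 0 to 0 and 0 to 13, 0 to 2 and 1 to 15, 0 to 0 and 0 to 8 (GH times), and 0 to 0 for hypox males against hypox females. Between times they ranged 0 to 0 for 90 against 30 min, 0 to 0 and 0 to 2 for 240 against 30 min, and 0 to 2 and 0 to 3 for 240 against 90 min. Depth of 13078268 to 33700120 tags limits what can be called, and 2 pools a group limit every contrast.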
